A study of Homo sapiens with 4 samples.

Results

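The transcripts described here are those of the heterogeneous nuclear ribonucleoproteins (hnRNP) and the serine/arginine-rich (SR) splicing factors, with the SF3A and SF3B subunits of the U2 snRNP. Members were all genes whose current symbol begins with HNRNP or SRSF, together with SRRM1, SRRM2, TRA2A, TRA2B, PTBP1, U2AF1, U2AF2 and the named SF3A and SF3B genes. The RefSeq gene table held 197 such symbols, of which 52 were protein coding, 142 were pseudogenes and 3 were long non-coding RNAs. Of these, 39 were measured among 6471 genes in all, namely 36 coding genes and 3 pseudogenes.

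RNA came from MDA-LM2, a subline of the human breast cancer line MDA-MB-231 that was selected for spread to the lung. Both groups received capped, polyadenylated synthetic RNA by lipid transfection and were taken after 48 h. In 2 samples this RNA was scrambled (scrambled control), and in the other 2 it held tandem sRSE elements (sRSE decoy), meant to titrate the factor that binds the sRSE. Each sample was read on 1 Illumina beadchip. No untransfected cells were analysed here, so the effect of receiving RNA at all is common to both groups. The labels do not say that the samples of a group were separate cultures, so p-values cover just the scatter among these arrays, and that scatter could be technical. In bulk RNA, fewer cells of a type and less of a transcript per cell cannot be told apart.

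The decoy arrays were brighter, with 75th percentiles of the raw signal of 207.9 and 192.6 against 166.05 and 156.6 on the scrambled arrays. Of the markers listed for this line, 5 of the 7 that could be read were detected (ANXA1, CD44, LGALS1, MSN and PLAUR), while KRT18 and SPARC were detected on 0 arrays. None of the 6 readable luminal or epithelial markers was detected (CDH1, ERBB2, ESR1, FOXA1, GATA3 and PGR). Of 6 readable blood and fibroblast markers, 1 was detected, the endothelial and platelet adhesion gene PECAM1.

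hnRNP proteins coat nascent transcripts, and many of them repress nearby splice sites or steer RNA stability and transport. SR proteins bind exonic enhancers through RNA recognition motifs and recruit the spliceosome through their arginine- and serine-rich domains. U2AF and the SF3A and SF3B complexes help the U2 snRNP to recognise the branch site and the 3′ splice site. Many genes of these families limit their own messenger RNA through alternatively spliced exons that trigger its decay.

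Members were chosen by symbol, and the symbols of probes were selected on measured values, by matching a value of the same decoy against scrambled comparison between the authors' table of accessions and the probes. That match asks for equality and not for a size or a direction, yet it uses the contrast, so the changes of the members are given as a description. A change was called where limma's adjusted p over all 6471 genes was under 0.05. Changes below are differences of log2 signal, sRSE decoy minus scrambled control, with the standard error (SE) of that fit and 2 arrays per group.

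With the decoy, hnRNP transcripts moved in both directions. HNRNPAB, HNRNPA3, HNRNPR, HNRNPH2, HNRNPM, HNRNPA0 and HNRNPL rose, while HNRNPA2B1, HNRNPUL2 and PTBP1 fell. HNRNPD is counted as lower by its brighter probe, but its other probe rose. Among the SR factors, SRSF4 and TRA2A rose, and SRSF6, SRSF11 and SRRM1 fell. SF3B2 was the 1 called gene among the 5 measured U2 snRNP subunits. No member changed by as much as 2-fold (0 of 39), and the members ranged from -0.55 to 0.90 on the log2 scale.

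In all, 20 of the 39 measured members were called (51.3%), against 2885 of 6471 genes (44.6%). Of the members, 13 were higher and 7 lower, where 21.2% of all genes were called higher and 23.3% lower. The groups did not overlap in 29 members (74.4%), against 75.5% of all genes. The members' median change was 0.04 and that of all genes -0.03. Because the names rest on this contrast, nothing is read from these shares. With an absolute change of at least 0.5 required as well, 6 members were higher and 1 lower, and 17.3% of all genes passed. All 39 members were also kept by the filter when detection was asked of all 4 arrays.

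The direction of the smaller changes depended on how the arrays were scaled. With no scaling between arrays the median of all genes moved to 0.24, and 14 members were higher and 0 lower, beside 2582 and 245 genes. The median scaling over all probes gave 1591 genes higher and 1003 lower, against 1375 and 1510 here, and 11 members higher and 6 lower. Median scaling over the probes detected on every array, chosen after seeing the data, gave 11 members higher and 10 lower, beside 1405 and 1794 genes. Of the 20 called members, 7 kept their call in each of the 15 alternative fits in which they were measured. They were HNRNPAB, HNRNPA3, HNRNPA0, HNRNPH2, HNRNPM, SF3B2 and the pseudogene HNRNPA1P10. None of these 7 was among the 6 members left when the match of values was 10 times tighter. HNRNPA0 (0.48) and SF3B2 (0.46) also fell short of a size of 0.5. Calls were fewer without either decoy array, among the members and over all genes alike. The members' median change was 0.00 without sRSE decoy replicate 1 and 0.12 without sRSE decoy replicate 2. It was 0.05 without scrambled replicate 1 and 0.06 without scrambled replicate 2. The median of all genes stayed at -0.03 in each of these fits.

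**Figure D1:**
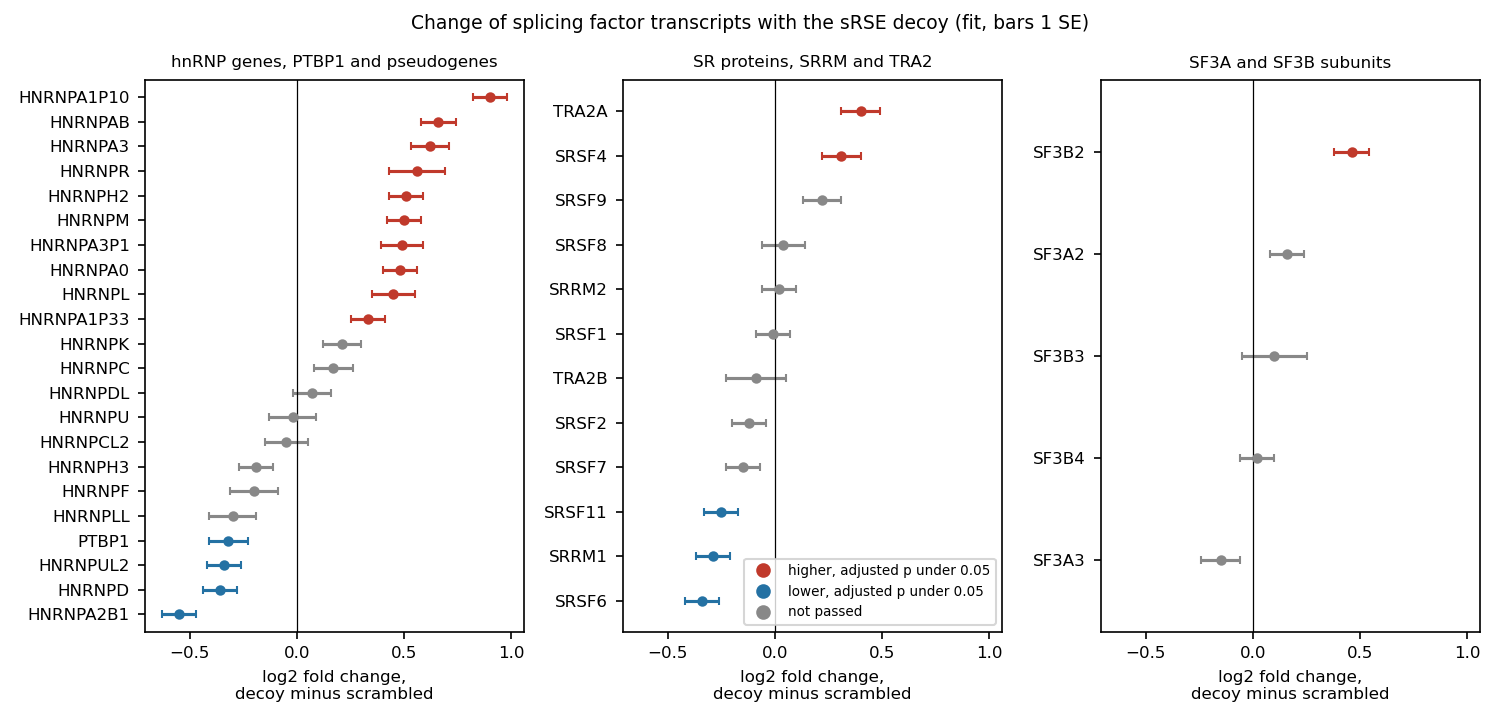
The log2 fold change (x axis, sRSE decoy minus scrambled control) of each measured member (y axis), in panels by family, with bars of 1 SE and colours for the call at an adjusted p of 0.05. The members run from -0.55 for HNRNPA2B1 to 0.90 for HNRNPA1P10.

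Promoter sequence is shown for genes of each direction, the rising HNRNPAB and HNRNPA3 and the falling SRSF6, and for HNRNPD, whose probes moved in opposite directions. Each is the 150 bases before the RefSeq start in GRCh38.p14, 5′ to 3′ on the gene's strand. The window of HNRNPAB is chr5:178204383-178204532 (plus) and that of HNRNPA3 is chr2:177212644-177212793 (plus). For HNRNPD it is chr4:82373992-82374141 (minus), and for SRSF6 chr20:43457746-43457895 (plus). Capitals mark CCAAT, the box bound by NF-Y, and GGGCGG, the box bound by Sp1, on either strand.
HNRNPAB: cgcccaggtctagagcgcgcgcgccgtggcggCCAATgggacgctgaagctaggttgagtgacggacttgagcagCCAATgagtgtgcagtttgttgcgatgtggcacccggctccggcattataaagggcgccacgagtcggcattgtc
HNRNPA3: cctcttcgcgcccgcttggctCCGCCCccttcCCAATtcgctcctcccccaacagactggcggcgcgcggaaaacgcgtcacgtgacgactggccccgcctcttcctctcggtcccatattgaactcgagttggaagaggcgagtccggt
HNRNPD: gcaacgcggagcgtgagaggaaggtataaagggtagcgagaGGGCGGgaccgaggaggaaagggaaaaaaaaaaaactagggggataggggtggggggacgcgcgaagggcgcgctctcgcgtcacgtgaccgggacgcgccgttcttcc
SRSF6: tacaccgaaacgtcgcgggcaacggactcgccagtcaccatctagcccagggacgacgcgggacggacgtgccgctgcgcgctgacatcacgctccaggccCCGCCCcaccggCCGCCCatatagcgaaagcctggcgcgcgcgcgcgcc

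Over the 250 bases before the start, CCAAT on either strand was found in 17 of 33 members with a promoter in the table (51.5%). The share was 36.6% of the 5299 promoters of genes tested and 33.0% of all 27305 promoters. CCAAT was present in 6 of 9 members called higher, 4 of 7 called lower and 7 of 17 that did not pass. GGGCGG was found in 69.7% of the members, 69.4% of the genes tested and 42.3% of all promoters. CCGGAAG, a site of the ETS family, was found in 24.2%, 17.4% and 8.82%. These are matches of letters, given as a description.

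The hnRNP A/B genes encode abundant proteins with paired RNA recognition motifs that bind exonic and intronic silencers. HNRNPAB, which binds single-stranded nucleic acids, gave log2 signals of 9.60 and 9.56 with scrambled RNA and 10.26 and 10.23 with the decoy. Its change was 0.66 (SE 0.08, limma adjusted p = 0.00113), a 1.58-fold rise. HNRNPA3, a close relative of HNRNPA1 and HNRNPA2B1, gave 8.08 and 8.07 with scrambled RNA and 8.60 and 8.78 with the decoy. The arrays of the groups were apart for both genes, and HNRNPA3 rose by 0.62 (SE 0.09, limma adjusted p = 0.00241). HNRNPA0, which binds AU-rich elements, gave 10.54 and 10.55 against 11.04 and 11.00. It rose by 0.48 (SE 0.08, limma adjusted p = 0.00346), with both decoy arrays above both scrambled arrays.

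HNRNPA2B1 encodes a splicing and RNA transport factor, and was the hnRNP A/B gene that fell. Its log2 signals were 8.0 and 8.02 with scrambled RNA and 7.47 and 7.44 with the decoy. It fell by 0.55 (SE 0.08, limma adjusted p = 0.00219), a 1.47-fold decrease, and the groups lay far apart relative to their spread. Its raw signals were 282.7 and 265.9 with scrambled RNA and 264.2 and 240.0 with the decoy. On that raw scale the decoy signal was 0.919 of the scrambled signal, and the call was lost without scaling between arrays, where the change was -0.18. A further accession of HNRNPA2B1, not linked to a probe, stood at the 16.8th percentile of the authors' deposited table.

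The pseudogene symbols of this class were measured, and a probe for such a copy may also read its parent gene, so their values are uncertain. HNRNPA1P10 gave 11.19 and 11.14 with scrambled RNA and 12.07 and 12.07 with the decoy, a rise of 0.90 (SE 0.08, limma adjusted p = 0.000681). HNRNPA1P33 rose by 0.33 (SE 0.08, limma adjusted p = 0.0165). HNRNPA3P1 gave 6.81 and 6.68 with scrambled RNA and 7.14 and 7.33 with the decoy, a rise of 0.49 (SE 0.10, limma adjusted p = 0.007). Its raw signals were low, at 150.3 and 135.0 against 221.2 and 227.3. The call of HNRNPA1P33 was lost without either decoy array, with no detection filter and with both kinds of median scaling (as low as 0.14), and that of HNRNPA3P1 without sRSE decoy replicate 2. The parent HNRNPA1, which represses exon inclusion and shuttles between nucleus and cytoplasm, was not linked to a probe. Its value in the authors' deposited table was 0.0191, at the 97.8th percentile. Such values were fitted as log10 of a ratio of transformed group means and are not log10 fold changes. Without the 3 pseudogenes, 10 members were higher and 7 lower.

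**Figure D2:**
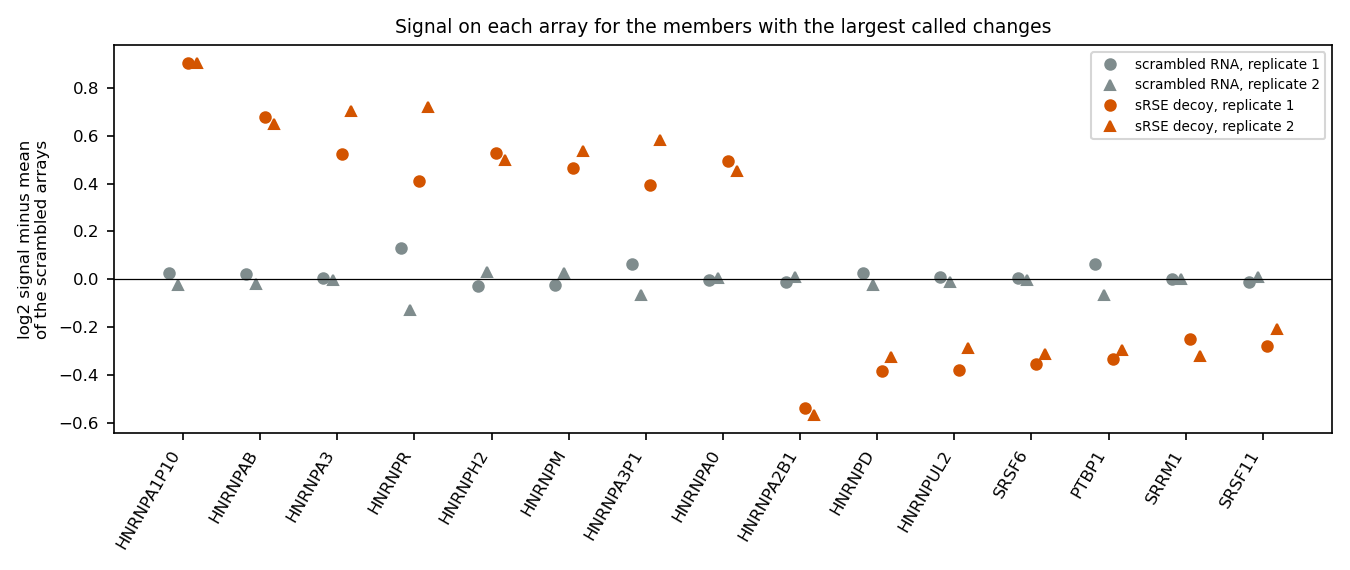
Log2 signal on each of the 4 arrays, relative to the mean of the scrambled arrays (y axis), for the called members with the largest changes in each direction (x axis). For HNRNPAB the decoy arrays lie near 0.66 above the scrambled arrays, and for HNRNPA2B1 near 0.55 below.

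Other hnRNP families rose in part. HNRNPM, a splicing regulator that binds GU-rich RNA, gave 11.54 and 11.59 with scrambled RNA and 12.03 and 12.10 with the decoy, a rise of 0.50 (SE 0.08, limma adjusted p = 0.00314). HNRNPR, an RNA-binding relative of SYNCRIP, gave 8.14 and 7.88 against 8.42 and 8.73, a rise of 0.56 (SE 0.13, limma adjusted p = 0.0119). Its replicates were further apart than those of most members, and the call was lost with no detection filter and without sRSE decoy replicate 2, where the change was 0.41. HNRNPL, which binds CA repeats, gave 9.47 and 9.41 against 9.77 and 10.01, a rise of 0.45 (SE 0.10, limma adjusted p = 0.0106) that was lost without the same array. Its relative HNRNPLL, which regulates splicing in lymphocytes, gave 9.11 and 9.11 against 8.95 and 8.67. The change of -0.30 (SE 0.11) did not pass, with a limma adjusted p of 0.0537.

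HNRNPH2 belongs to the F/H family, which binds runs of G. It gave 9.26 and 9.32 with scrambled RNA and 9.82 and 9.79 with the decoy, a rise of 0.51 (SE 0.08, limma adjusted p = 0.00279). HNRNPF and HNRNPH3, of the same family, had changes of -0.20 and -0.19 and did not pass. HNRNPK, a KH-domain protein that binds C-rich RNA, had a change of 0.21 that did not pass (limma adjusted p = 0.077), and HNRNPCL2, a near copy of HNRNPC, one of -0.05.

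HNRNPUL2, a relative of the nuclear matrix protein HNRNPU, gave 10.04 and 10.02 with scrambled RNA and 9.65 and 9.74 with the decoy. It fell by 0.34 (SE 0.08, limma adjusted p = 0.0141). PTBP1, also called hnRNP I, represses exons flanked by polypyrimidine tracts, and gave 13.35 and 13.22 against 12.95 and 12.99. It fell by 0.32 (SE 0.09, limma adjusted p = 0.0223), with both decoy arrays below both scrambled arrays. Both calls were lost without sRSE decoy replicate 1, without sRSE decoy replicate 2 and without scaling between arrays, and that of PTBP1 also without scrambled replicate 1 and with no detection filter.

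The hnRNP genes HNRNPC, HNRNPD, HNRNPDL, HNRNPH2 and HNRNPU were each read by a pair of probes linked to different transcript accessions, and the probes of HNRNPD moved in opposite directions. HNRNPD (AUF1) binds AU-rich elements and promotes the decay of such messages. Its brighter probe, linked to NM_031369, gave 13.69 and 13.64 with scrambled RNA and 13.28 and 13.34 with the decoy, and fell by 0.36 (SE 0.08, limma adjusted p = 0.0114). Its dimmer probe, linked to NM_002138, gave 13.09 and 13.08 against 13.48 and 13.36, and rose by 0.33 (SE 0.09, limma adjusted p over all probes 0.0166), where 45% of all named detected probes were called. The change of the brighter probe minus that of the dimmer was -0.69 (SE 0.15, limma adjusted p = 0.000866 over 310 genes with several probes). With the mean of the probes in place of the brightest, the change of HNRNPD was -0.01. Without sRSE decoy replicate 1 or replicate 2 the fall of the brighter probe did not pass, at -0.33 and -0.39. That call was also lost without scaling between arrays.

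HNRNPC, which binds uridine tracts, also differed between its probes. The brighter probe had a change of 0.17 that did not pass, and the dimmer one gave 10.38 and 10.50 with scrambled RNA and 10.12 and 10.10 with the decoy. The dimmer probe fell by 0.33 (SE 0.09, limma adjusted p over all probes 0.0183), and the difference between probes was 0.49 (SE 0.14, limma adjusted p = 0.00891). That difference did not pass without sRSE decoy replicate 1 (limma adjusted p = 0.0605) or replicate 2 (0.088). HNRNPDL, a relative of HNRNPD, had a change of 0.07 on its brighter probe, and its dimmer probe fell by 0.32 (SE 0.08, limma adjusted p over all probes 0.0187). The HNRNPDL difference of 0.39 (limma adjusted p = 0.0333) was lost when any 1 array was left out and with the replicate number as a block (limma adjusted p = 0.0585).

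For HNRNPU, a scaffold protein of nuclear RNA and chromatin, the brighter probe changed by -0.02 and did not pass, and the dimmer probe fell by 0.37 (SE 0.08, limma adjusted p over all probes 0.00965). For HNRNPH2 the dimmer probe changed by 0.15 (SE 0.13) and did not pass. Neither probe difference passed, with limma adjusted p-values of 0.0665 and 0.0661. Both passed with no background correction (limma adjusted p = 0.0459 and 0.026) and with the authors' normalized intensities (0.0412 and 0.0318). Such a difference passed in 142 of the 310 genes (45.8%), so it was common on these arrays. This test was chosen after seeing the data. Probe sequences were not used here, so which transcripts each probe reads beyond its linked accession is not known.

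**Figure D3:**
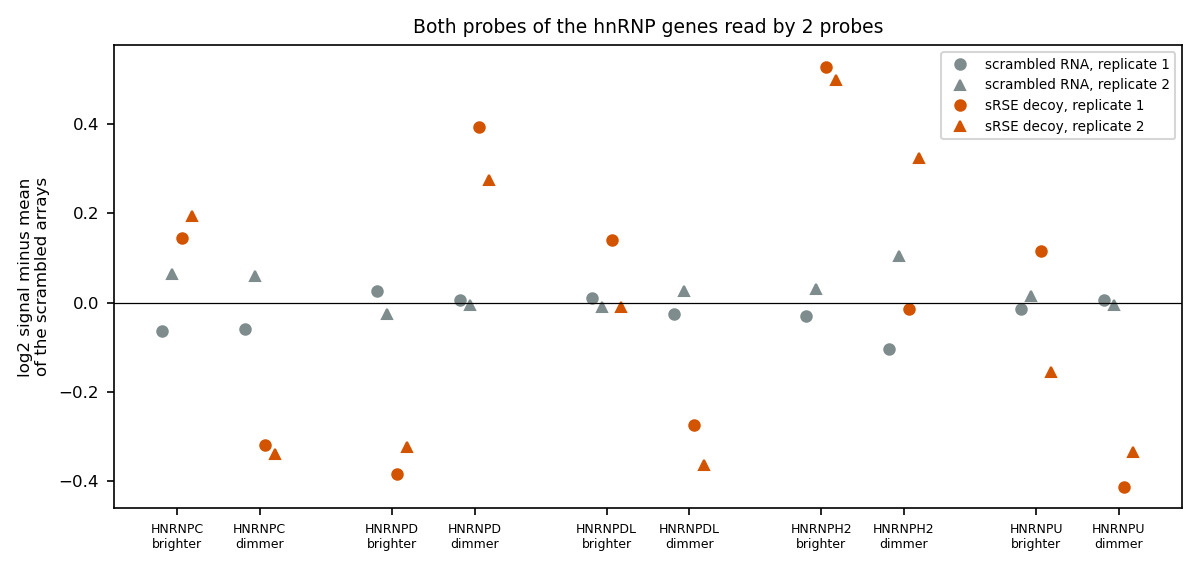
Log2 signal on each array relative to the mean of the scrambled arrays (y axis), for both probes of the hnRNP genes read by 2 probes (x axis). The probes of HNRNPD lie on opposite sides of 0 with the decoy, at -0.36 and 0.33.

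Of the 12 measured SR factors 2 were higher, 3 lower and 7 not passed, with a median change of -0.05. The 22 measured hnRNP genes, PTBP1 included, gave 10 higher, 4 lower and 8 not passed, but 3 of the 10 are the pseudogenes of uncertain reading. The 19 coding hnRNP genes gave 7 higher and 4 lower with a median change of 0.07, beside 21.2% higher and 23.3% lower over all genes. The difference between these families was not tested. SRSF6, an exonic enhancer-binding protein, gave 12.53 and 12.52 with scrambled RNA and 12.17 and 12.21 with the decoy. It fell by 0.34 (SE 0.08, limma adjusted p = 0.0126), with the groups apart, and the call was lost without either decoy array and without scaling between arrays. SRSF11, an SR-related protein of nuclear speckles, gave 9.03 and 9.05 against 8.76 and 8.83, and fell by 0.25 (SE 0.08, limma adjusted p = 0.0405). The SRSF11 call was lost without each array in turn, with the replicate number as a block, with median scaling, cyclic loess and no detection filter, and the sign turned to 0.04 without scaling between arrays.

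SRSF4 rose by 0.31 (SE 0.09, limma adjusted p = 0.023), from 11.06 and 10.98 to 11.39 and 11.28. The call was lost without scrambled replicate 2, without either decoy array, with no detection filter and with both kinds of median scaling, where the change was as low as 0.15. SRSF1, the archetypal SR protein, gave 12.31 and 12.30 with scrambled RNA and 12.29 and 12.30 with the decoy, a change of -0.01. SRSF2, SRSF7, SRSF8 and SRSF9 had changes of -0.12, -0.15, 0.04 and 0.22, and none of them passed.

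TRA2A and TRA2B are paralogous enhancer-binding proteins that promote exon inclusion. TRA2A gave 7.98 and 7.97 with scrambled RNA and 8.45 and 8.30 with the decoy, a rise of 0.40 (SE 0.09, limma adjusted p = 0.0097) that was lost without sRSE decoy replicate 1. TRA2B gave 11.15 and 11.25 against 11.32 and 10.90, so its decoy arrays lay on both sides of the scrambled arrays, with a change of -0.09 (SE 0.14). SRRM1, a coactivator in the nuclear matrix that links SR proteins, gave 10.83 and 10.83 against 10.58 and 10.51. It fell by 0.29 (SE 0.08, limma adjusted p = 0.0252), a call that was lost without each array in turn, with no detection filter and without scaling between arrays, and its partner SRRM2 changed by 0.02.

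Of the U2 snRNP subunits, SF3B2, which contacts RNA near the branch site, gave 10.65 and 10.69 with scrambled RNA and 11.12 and 11.14 with the decoy. It rose by 0.46 (SE 0.08, limma adjusted p = 0.00416), with the groups apart. SF3A2, SF3A3, SF3B3 and SF3B4 had changes of 0.16, -0.15, 0.10 and 0.02, and none passed. SF3B3 gave 8.56 and 9.02 on the scrambled arrays, so its replicates differed by more than its change. SF3A1 and SF3B1, the latter the branch-site binding protein, were not detected by their linked probes, nor was SRSF12. A further accession of SF3B1 was not linked to a probe, so SF3B1 was read in part.

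**Figure D4:**
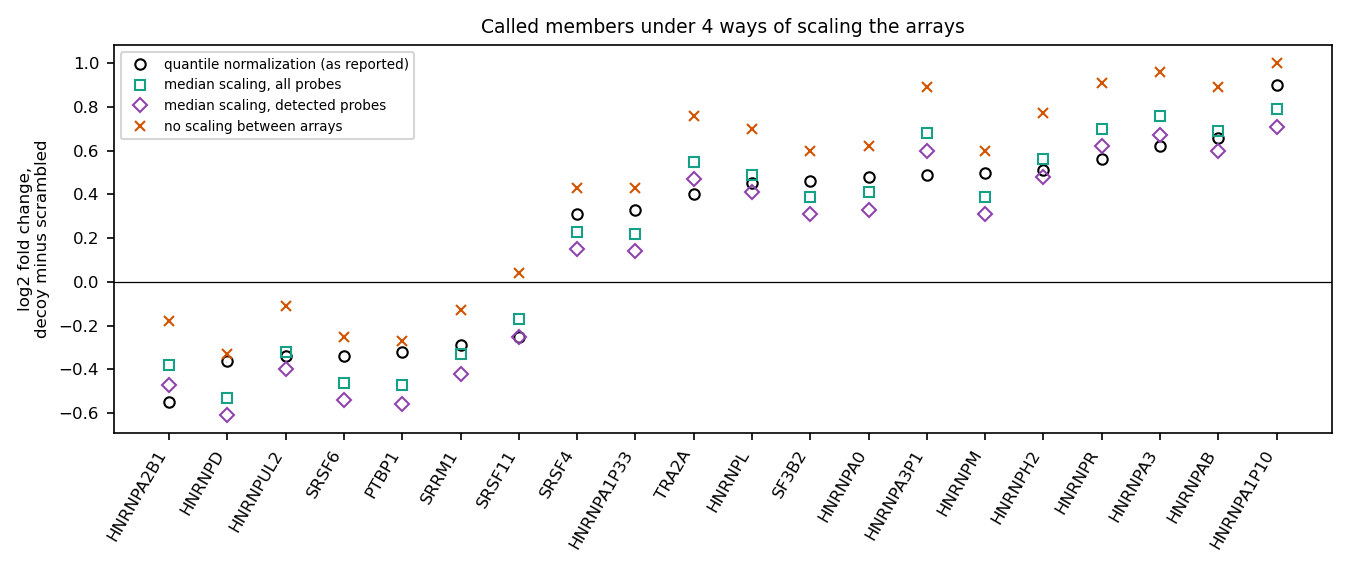
The log2 fold change (y axis, sRSE decoy minus scrambled control) of each called member (x axis) under 4 ways of scaling the arrays. SRSF11 moves from -0.25 to 0.04 without scaling between arrays. In the fit reported here HNRNPA1P10 is the highest member, at 0.90, and it moves to 1.0 without scaling between arrays.

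A further 10 members had an accession in the authors' deposited table but no linked probe, so no array values can be given. Values of the authors' deposited table were fitted as log10 of a ratio of transformed group means. They are not log10 fold changes, so each is read by its percentile among all accessions. U2AF1, which reads the AG of the 3′ splice site, stood at 0.0226 (98.5th percentile) in the authors' deposited table, and its partner U2AF2 at -0.000425 (48.8th). In the authors' deposited table HNRNPA1L2 stood at the 90.1st percentile, HNRNPH1 at the 87.9th, HNRNPUL1 at the 71.4th and HNRNPCL1 at the 58.1st. The SR genes SRSF3, SRSF5 and SRSF10 stood at the 24.2nd, 26.7th and 37.2nd percentiles of the authors' deposited table. Some measured members also had a further accession with no linked probe. For HNRNPAB, HNRNPM and HNRNPR it stood at the 87.2nd, 89.9th and 74.4th percentiles of the authors' deposited table. The linked accessions of these genes stood at the 99.2nd, 97.7th and 98.4th. The further accessions of HNRNPK and HNRNPH3 stood at the 84.3rd and 24.7th percentiles. All these values have no replicate spread. The percentiles run over all accessions, detected or not, so a high one need not mean a detected or called transcript. For example, SF3A1, not detected by its linked probe, stood at the 90.1st. The linked accession of HNRNPK, which did not pass, stood at the 89.0th.

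Other splicing genes, in lists chosen with earlier results of these data known, moved both ways. Of 119 measured of 176 listed, 33 were higher, 24 lower and 62 not passed, with a median change of 0.02. Among 16 measured proteins of the U4/U6.U5 tri-snRNP, 8 were higher, CD2BP2 was lower and 7 did not pass, where 21.2% of all genes were called higher and 23.3% lower. The 8 became 3 without either decoy array, 5 without scrambled replicate 1, 4 with median scaling, and 3 with no detection filter or with median scaling over detected probes. PRPF6, a bridging protein of the tri-snRNP, rose by 0.57, and the GTPase EFTUD2 rose by 0.56. The named member USP39 rose by 0.41.

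The counts here and in the next paragraph stand beside 21.2% of all genes called higher and 23.3% called lower. Of 20 measured PRP19 complex and catalytic step proteins, 6 rose and 5 fell, with CTNNBL1 at 0.63, XAB2 at 0.50 and the helicase DHX8 at -0.46. The others that fell were CWC27, PRPF18, RBM22 and SLU7. Of 8 U1 and Sm core proteins, SNRPA rose by 0.54, SNRPD3 rose by 0.52 and SNRPD1 fell by 0.28. Among 13 other U2-associated proteins CHERP and U2SURP rose, and CCAR1, SMNDC1 and DDX46 fell. The genes U2SURP, DDX46, CD2BP2, CWC27, PRPF18, RBM22, SLU7, ARGLU1, RBM25, RBM23, XPO1, DTX3L and IFITM3 are named here and below to complete these counts, chosen after their values were seen.

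The enzymes and carriers of SR proteins gave 1 rise and 2 falls among 4 measured. TNPO3, which imports SR proteins into the nucleus, rose by 0.39, and the kinases CLK4 and SRPK1 fell by 0.43 and 0.36. Of 13 other SR-related proteins 2 rose and 4 fell, with SREK1 at -0.70, SFSWAP at -0.45 and SCAF4 at 0.55, while RBM23 also rose and ARGLU1 and RBM25 also fell. Of 7 exon junction complex proteins ACIN1 and CASC3 rose and 0 fell. Among 30 other regulators 8 rose and 6 fell, with QKI at 0.90, YBX1 at 0.49 and RBM10 at -0.57. Of 8 transport partners 2 rose and 2 fell, with the export receptor NXF1 at 0.68, THOC6 at 0.48 and THOC1 at -0.53, while XPO1 also fell.

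Interferon-stimulated genes, which respond to foreign RNA, moved in the same samples. Of 11 measured, 8 were lower and 2 higher with the decoy, where 23.3% and 21.2% of all genes were, with a median change of -0.60 and IRF1 at -1.14, SAMD9 at -0.81 and IFITM1 at -0.77. The higher ones were DTX3L at 0.51 and IFITM3 at 0.38. Their part in the changes of the splicing factors was not tested, nor was that of the brightness of the decoy arrays.

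**Figure D5:**
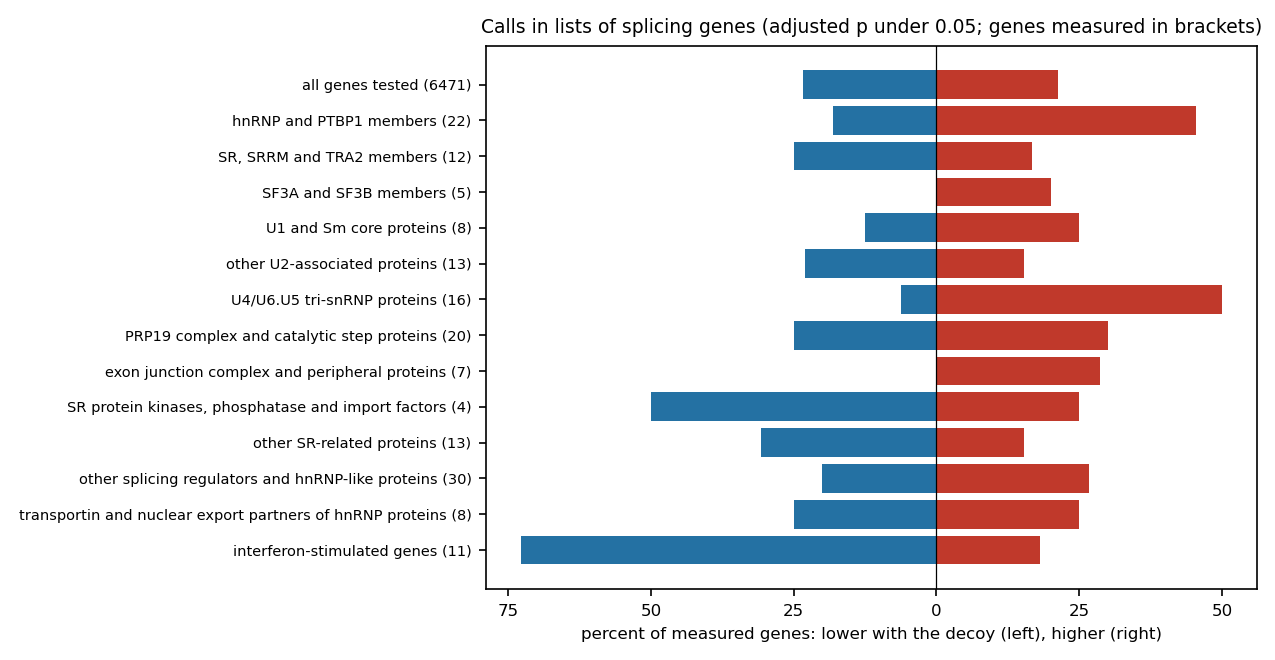
The percent of measured genes called lower (left of 0) and higher (right of 0) with the sRSE decoy in each list of splicing genes (y axis, genes measured in brackets). Calls in both directions are present in most lists, against 21.2% higher and 23.3% lower over all genes.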

How the data were processed

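Total RNA of 4 MDA-LM2 samples, 2 per group by the labels, was read on Illumina beadchips. The authors deposited raw intensities of 47323 probes with a detection p-value beside each, per the file headers, and normalized intensities from lumi, per the submitters' processing notes, with no version stated. The authors also deposited 1 log ratio per accession, whose base the header does not state and which was fitted as log10 of a ratio of transformed group means. No table paired probes with genes, so 32439 of 39747 accessions (81.6%) were linked to the 1 probe whose recomputed ratio lay within 6e-10. By chance 106.1 links (0.327%) arose on average, in 8 copies of the values shifted so that no true link remained. Names came from RefSeq GRCh38.p14.

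Background was removed from the raw intensities by normexp, using negative controls derived from the detection p-values, and after adding an offset of 16 the arrays were quantile normalized and log2 transformed. For sRSE decoy replicate 1, 3 detection entries repeated the neighbouring signal. Each was replaced by the detection p of the probe with the nearest signal on that array. A probe was kept with detection p below 0.01 on 2 or more arrays, and a gene was read by its brightest probe. Groups were compared with lmFit and eBayes (limma 3.58.1, R 4.3.3) without covariates and with Benjamini-Hochberg adjustment over all 6471 genes. The fit was tested on simulated data. The small number of arrays limits the precision. Deviations of same-numbered samples correlated at -0.01, and the main fit used no pairing. With 2 arrays per group, this value cannot show whether same-numbered samples were prepared together.

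The members and lists were chosen with earlier results of these data known. Called members with up to 8 of the largest changes in each direction whose arrays separate (8 higher and 7 lower) are given array by array by rule. Array values of HNRNPL, HNRNPLL, SRSF1, SRSF4, TRA2A, TRA2B, SF3B2 and SF3B3 were added after they were seen. The others are named by class, and each other list by its 3 smallest p. Alternatives covered the background correction, scaling, filter, probe choice, linking, size, pairing and arrays left out.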

Additional observations from a re-analysis of the deposited data

How the results depend on the processing

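The counts of members higher and lower (13 and 7), the members' median (0.04), the counts of all genes (1375 and 1510) and of other splicing genes (33 and 24) stayed within 1.5 times, or within the spread, under no background correction, cyclic loess, the authors' normalized intensities, detection on all 4 arrays and the mean of the probes. With the replicate block, 13 members were higher and 7 lower, with 1350 and 1479 genes, although the calls of SRSF11 and of the HNRNPDL probe difference were lost and HNRNPLL passed. Median scaling gave 1003 genes lower. With no detection filter 4 members and 990 genes were lower and 21 other splicing genes higher. Links with a tolerance 10 times tighter left 6 members and 819 genes, with 1 member higher, 2 lower and a median of -0.07, 176 and 173 genes, and 3 and 2 other splicing genes. Asking for a change of at least 0.5 left 6 members higher and 1 lower. Of the alternatives chosen after seeing the data, median scaling over detected probes gave a median of -0.01. No scaling gave 0 members lower, a median of 0.28, 2582 and 245 genes, and 52 and 5 other splicing genes. The signals as deposited gave 1 member lower, a median of 0.27, 2675 and 255 genes, and 54 and 5 other splicing genes. SRSF11 reversed to 0.04 and 0.05 in these last 2. Leaving out 1 array gave 8 to 13 members higher, 1 to 5 lower, medians of 0.00 to 0.12, 667 to 1216 and 695 to 1278 genes, and 13 to 28 and 11 to 28 other splicing genes. The lone array of a group is then assumed to vary like the other group. The cause of these shifts was not tested, beyond the fewer genes or arrays that an alternative leaves. Names from a platform annotation alone were not run, as none was used here.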
